A study of Mus musculus with 6 samples.

Results

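Transcripts of the cytosolic ribosomal proteins were examined in skeletal muscle of 6 mice, 3 transgenic (TG) and 3 wild type (WT). The series title names SOCS-3, an inhibitor of cytokine signalling, and muscle. The genes were chosen by symbol alone: Rpl or Rps followed by a number and at most 1 letter (a, l or x), together with Rplp0, Rplp1, Rplp2 and Rpsa, without pseudogenes and without the S6 kinases. This gave 59 genes out of 19938 measured, 37 of the large and 22 of the small ribosomal subunit, and each was represented by its brightest probe set on average. Of 79 canonical ribosomal protein genes, 53 were among them, and the other 6 of the 59 were paralogs (Rpl3l, Rpl10l, Rpl32l, Rpl39l, Rps4l and Rps27l). Of the 26 canonical genes not covered, 16 had only probe sets annotated to several genes, 8 were not listed in the annotation used, and 2 (Fau and Rps3a1) had symbols outside the rule.

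Every array carried RNA of a different mouse, going by the subject names. The labels give the tissue as skeletal muscle and the type as transgenic or wild type. What the transgene carries, the promoter that drives it, the strain, age and sex of the mice and the muscle taken are not stated in the labels. Values are on a log2 scale, where a difference of 1 is a doubling, and differences are TG minus WT. The tissue label was borne out by its markers: the 12 muscle genes checked, among them Acta1, Ckm and Myh4, had means of 12.02 to 14.59 on arrays whose median over all probe sets was 5.98 to 6.04. Socs3 averaged 7.15 ± 0.09 on TG arrays and 7.41 ± 0.03 on WT arrays (SD, n = 3 each; limma, adjusted p = 0.660), and whether its probe set can detect the transgene is not stated. Only 3 arrays per group limit the precision of every value below. Transcripts typical of liver and of bone varied between arrays. The summed linear signals of the 9 liver transcripts measured of 10 listed were 1331, 3902 and 715 in TG and 1717, 2591 and 2981 in WT. The sums of the 6 bone and osteoclast transcripts measured of 7 listed were 1057, 624 and 448 in TG and 479, 378 and 474 in WT. On TG array 2 the liver sum was the highest of all arrays, and on TG array 1 the bone sum was. Of the adipocyte markers, 6 of 8 were measured and all 6 had a difference above 0, with summed signals of 2240 to 2520 in TG and 2050 to 2284 in WT. Of the macrophage markers, 11 of 12 were measured and 10 lay above 0, with sums of 1163 to 1473 in TG and 1052 to 1349 in WT. Above 0 were also 5 of the 6 bone and 0 of the 9 liver transcripts. The same held for 1 of 3 erythroid and 2 of 7 lymphocyte markers measured, and for 8728 of all 19938 genes. The part of these cell types in the ribosomal protein values was not tested.

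The cytosolic ribosome reads messenger RNA into protein with a small subunit, which holds the decoding site, and a large subunit, which holds the site of peptide bond formation. Its proteins are made in matched amounts, and many of their messenger RNAs in mammals begin with a cytosine followed by a run of pyrimidines, the 5′ terminal oligopyrimidine (TOP) motif, through which mTOR complex 1 and LARP1 adjust their translation. Ribosome content is one determinant of how much protein a muscle fibre can make. The comparison asked whether ribosomal protein transcript levels in muscle differed between TG and WT mice.

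Ribosomal protein transcripts were at nearly the same level in TG and WT muscle. None of the 59 passed an adjusted p of 0.05 over all genes, where 0.00502% of all genes did (limma, smallest adjusted p = 0.660), and 1 had an unadjusted p under 0.05. That gene was Rpl10l, lower in TG, where 4.79% of all genes were lower at that p. Differences lay between -0.14 and 0.077 for the 53 canonical genes. In 50 of the 59 the difference was under 0.1 in either direction, and in 58 under 0.2, against 62.5% and 88.3% of all genes and 73.5% and 93.9% of the genes above the median level, where 56 of the 59 lie. The median spread between arrays of a group was an SD of 0.056 for the 59, 0.112 for all genes and 0.085 for those above the median level. The intervals bound what could have been missed: for 52 of the 53 canonical genes the 95% interval of the difference lay within 0.32 of 0 (a linear change of 25% upwards), and the exception was Rps15a (-0.33 to 0.086). In whole muscle, fewer cells of a type and less RNA per cell cannot be told apart.

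**Figure D1:**
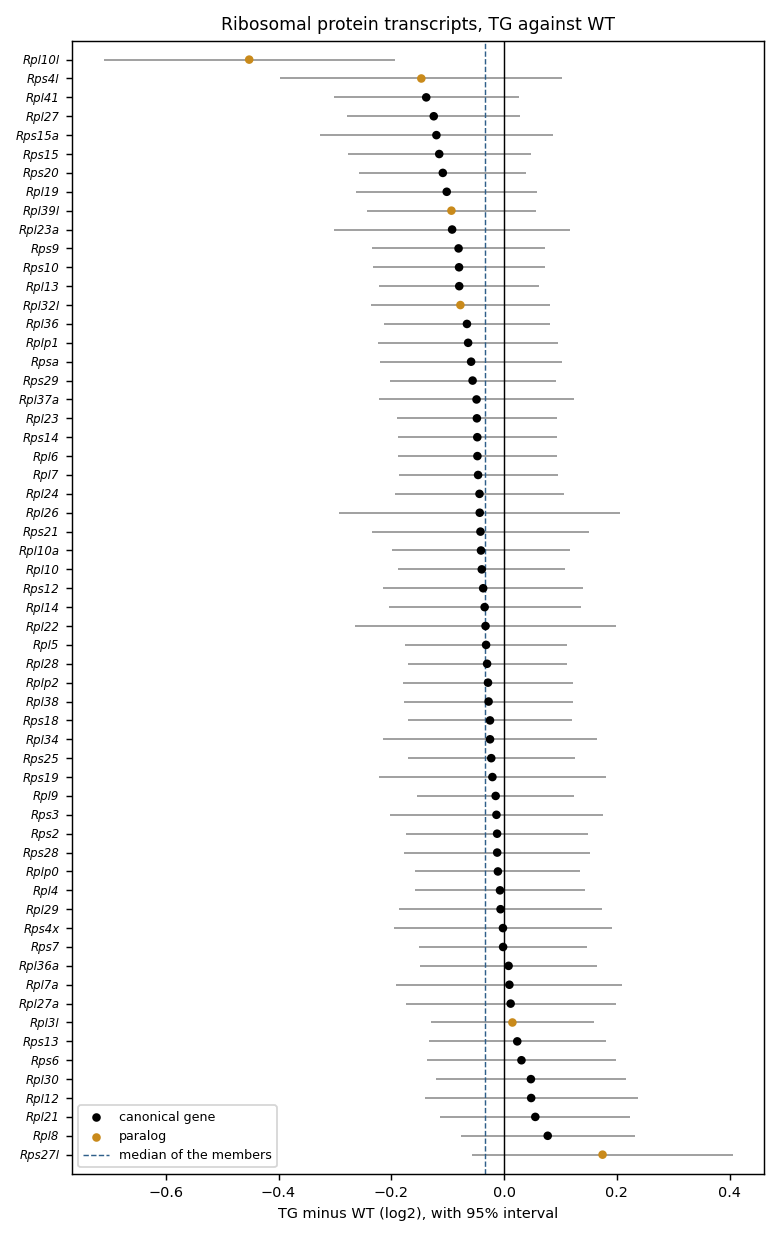
Difference (TG minus WT, log2) of each of the 59 ribosomal protein genes as a point with its 95% interval from limma as a grey line, ordered by size, with the 6 paralogs in orange. All intervals except that of Rpl10l cross 0, and the dashed line marks the median of -0.034.

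The small differences lay more often below 0 than above. In 48 of the 59 genes the TG mean was below the WT mean, where 56.2% of all genes were, and the median difference was -0.034 against -0.016 for all genes and 0.006 for the genes above the median level. A median of -0.034 corresponds to a TG level of 0.976 times that in WT. Large and small subunit genes had like medians, -0.034 over 37 genes with 29 below 0 and -0.031 over 22 genes with 19 below 0. In 9 of the 59 (15.3%) the TG arrays were all under the WT arrays, where 7.76% of all genes did so, and in 0 they were all over them, where 4.52% did. Setting the arrays to a common median moved all differences up together. Then 39 of the 59 were below 0, where 48.8% of all genes were, and the median was -0.015 against 0.0035 for all genes. Below without overlap were 2 genes, Rpl10l and Rpl39l, where 5.99% of all genes were, while Rpl8 was above. In either direction 5.08% of the 59 were without overlap, where 12.3% of all genes were. Quantile normalization instead left 48 below 0, where 56.3% of all genes were, and 13 below without overlap, where 7.57% of all genes were. Single arrays moved the values too. Without TG array 2 the median was -0.015, with 40 of the 59 below 0, where all genes had a median of -0.016 and 55.6% below 0. Without TG array 1 it was -0.053, with 51 below 0, where all genes had -0.010 and 53.7%. The small subunit median was -0.050 without WT array 3, where all genes had -0.0055. The number without overlap in either direction was 28 (47.5%) without TG array 1, where 21.2% of all genes were without overlap. It was 20 (33.9%) without WT array 3, where 20.6% of all genes were.

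The low values were most frequent on TG array 2. Relative to each gene's mean over the 6 arrays, the median deviation of the 59 genes was 0.016 on TG array 1, -0.054 on TG array 2 and -0.020 on TG array 3, against 0.022, 0.030 and -0.0009 on WT arrays 1, 2 and 3. On TG array 2, 54 of the 59 genes were below their own mean and 25 had their lowest value of the 6 arrays, and none had its highest. WT array 2 held the highest value for 22 genes. Over all genes the median deviations were -0.020, -0.0065 and 0.0035 on TG arrays 1, 2 and 3, against 0.0010, -0.0056 and 0.029 on WT arrays 1, 2 and 3. The liver transcript sums were 1331, 3902 and 715 on TG arrays 1, 2 and 3. On WT arrays 1, 2 and 3 they were 1717, 2591 and 2981. TG array 2 had the highest liver sum and TG array 3 the lowest, and both had median deviations below 0. TG array 1, with the highest bone transcript sum (1057), held the highest value of 14 ribosomal protein genes. WT array 2, with the lowest (378), held that of 22. A relation of these sums to the ribosomal protein values was not tested.

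**Figure D2:**
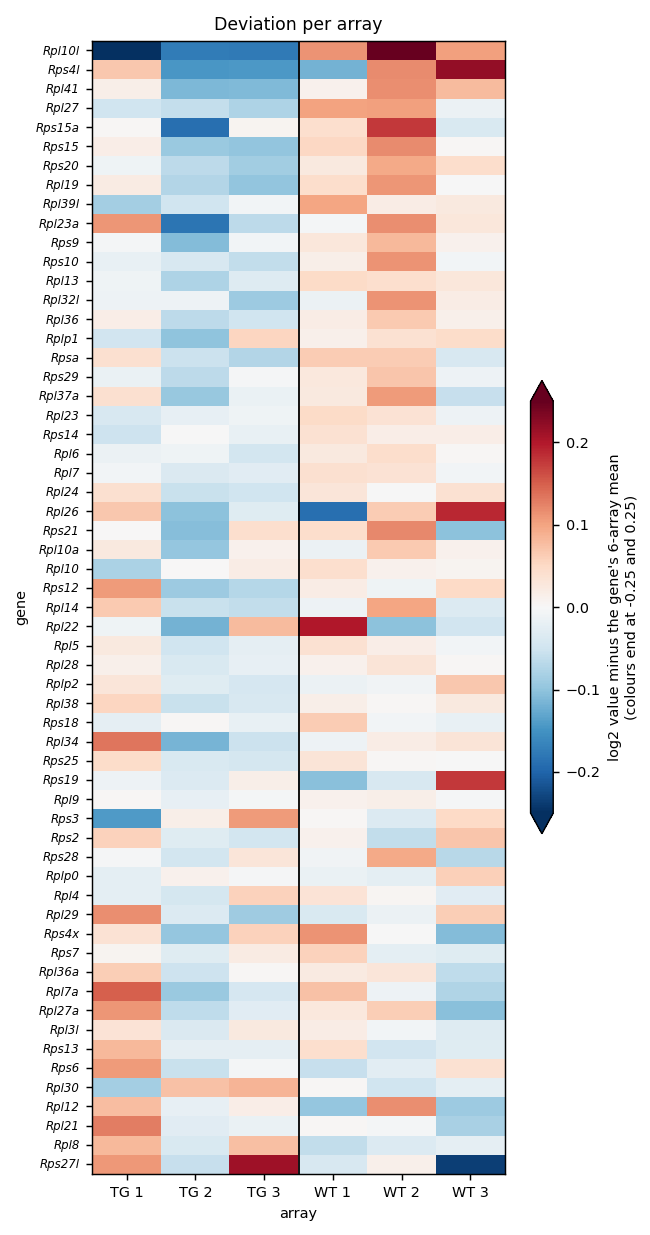
Colour map of the 59 genes (rows, ordered by difference) on the 3 TG and then the 3 WT arrays (columns), each cell being the log2 value minus that gene's mean over the 6 arrays. The TG 2 column is blue for 54 genes, while TG 1 has both colours (36 genes above and 23 below their mean).

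Among the paralogs, Rpl10l had the largest difference of all 59 genes. It is a retrogene copy of Rpl10 known from mouse testis, where it is needed for meiosis in the male germ line. Its probe set, 10400605, read 5.68, 5.83 and 5.83 in TG against 6.12, 6.47 and 6.11 in WT. The groups did not overlap. The difference was -0.45 (SE 0.11, 95% interval -0.71 to -0.19; limma, unadjusted p = 0.0040, adjusted p = 0.660), a linear change of -26.9%. All of these values except that of WT array 2 (6.47) lie below the median level of all genes, 6.42. Rpl10l has 1 probe set, so no second reading is at hand. Its parent gene Rpl10, which joins the large subunit late in assembly, averaged 12.92 ± 0.05 on TG arrays against 12.96 ± 0.02 on WT arrays (SD, n = 3 each). The difference was -0.039, and its 6 probe sets all lay between -0.053 and -0.017.

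Rpl3l, the striated-muscle paralog of Rpl3, was close to 0 in difference. It read 11.85, 11.78 and 11.84 in TG and 11.83, 11.81 and 11.78 in WT. The groups overlapped, and the difference was 0.015 (SE 0.06, 95% interval -0.13 to 0.16). Rpl3 itself had only probe sets annotated to several genes and is not reported. Rps27l, a p53-responsive paralog of Rps27, had the highest difference of the 59, with 9.43, 9.27 and 9.54 in TG and 9.28, 9.34 and 9.09 in WT. Its groups overlapped and the difference, 0.17 (SE 0.10, 95% interval -0.056 to 0.41), did not pass (limma, adjusted p = 0.791). Rpl39l, a testis-enriched copy of Rpl39, was near the lower end of the scale at 3.47, 3.50 and 3.55 in TG and 3.65, 3.57 and 3.58 in WT. These groups did not overlap, by a difference of -0.093 (SE 0.06). Rps4l, a copy of the X-linked gene Rps4x, differed by -0.15 (SE 0.11) with overlapping groups, and its second probe set by -0.048. Rps4x was at -0.0019. Rpl32l was at -0.077 with overlapping groups.

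**Figure D3:**
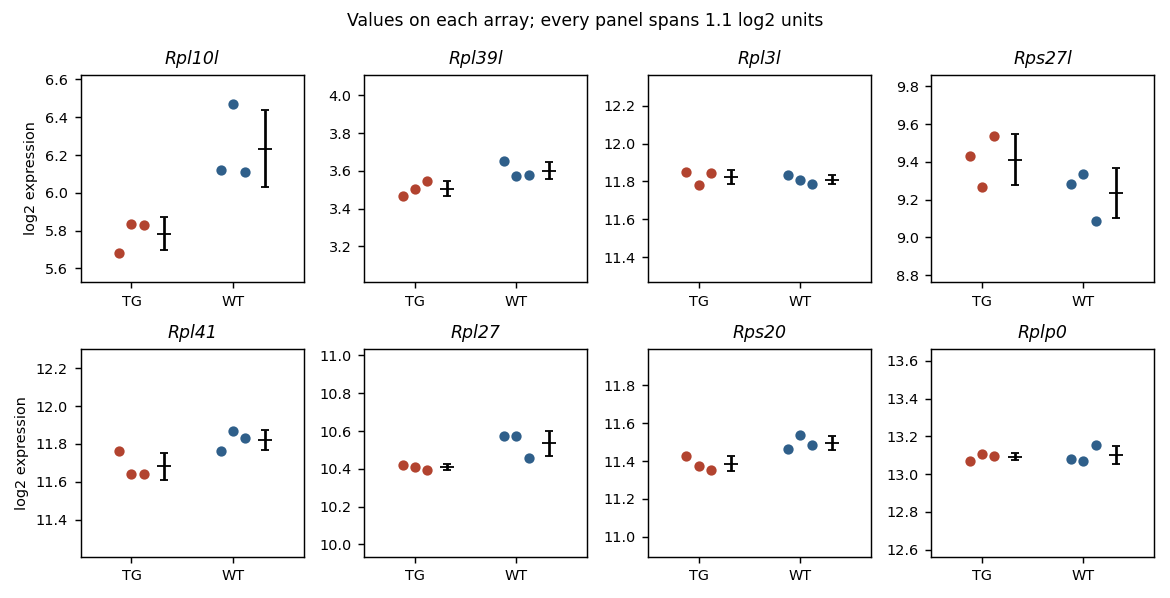
Log2 expression on each array for 8 genes, TG in red on the left and WT in blue on the right, with the mean and SD beside them; every panel spans the same height. The group means differ by -0.45 for Rpl10l, -0.12 for Rpl27 and -0.11 for Rps20, and the groups overlap for Rpl3l and Rplp0.

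The canonical genes with the lowest differences were Rpl41, Rpl27, Rps15a, Rps15 and Rps20. Rpl41, which encodes a very small basic protein of the large subunit, read 11.77, 11.64 and 11.64 in TG and 11.76, 11.87 and 11.83 in WT. TG array 1 overlapped WT array 1, and the difference was -0.14 (SE 0.07, 95% interval -0.30 to 0.026). Rpl27 read 10.42, 10.41 and 10.40 in TG and 10.57, 10.57 and 10.46 in WT, without overlap, a difference of -0.12 (SE 0.07). Rps20 read 11.43, 11.38 and 11.35 in TG and 11.46, 11.54 and 11.48 in WT, also without overlap, a difference of -0.11 (SE 0.06). Rps20 and Rps10 lie on the small subunit where stalled ribosomes are marked with ubiquitin, and Rps10 was at -0.080 without overlap. Rps15, a protein of the small subunit head, was at -0.11 (SE 0.07), and its other 2 probe sets gave -0.18 and -0.14. Rps15a was at -0.12 (SE 0.09) with overlapping groups. Rpl13, Rps9 and Rps14 were also without overlap, at -0.079, -0.081 and -0.047, and Rpl6 at -0.047. None of these passed (limma, adjusted p from 0.774 to 0.893). With a variance model that follows intensity, Rpl41, Rpl27, Rps20 and Rps15 joined Rpl10l at an unadjusted p under 0.05 (limma, 0.019, 0.028, 0.029 and 0.042). These made 5 of the 59, where 6.52% of all genes were at that p in either direction in the same fit, and the adjusted p stayed at 0.735 or more for these 4.

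At the upper end, Rpl8, a large subunit protein next to the peptidyl transferase centre, read 11.71, 11.59 and 11.71 in TG and 11.57, 11.60 and 11.61 in WT. TG array 2 overlapped WT, and the difference was 0.077 (SE 0.07, 95% interval -0.077 to 0.23). Rpl21, Rpl12 and Rpl30 were at 0.055, 0.048 and 0.048, each with overlapping groups. Rps6, the substrate of the S6 kinases that mTOR complex 1 activates, read 12.51, 12.35 and 12.40 in TG and 12.35, 12.38 and 12.44 in WT. Its groups overlapped, with a difference of 0.031 (SE 0.07), and its other 7 probe sets all lay below 0, down to -0.033.

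The P stalk recruits and activates elongation factors on the large subunit, and its genes showed no separation. Rplp0, which anchors the stalk, read 13.07, 13.11 and 13.09 in TG and 13.08, 13.07 and 13.15 in WT, a difference of -0.011 (95% interval -0.16 to 0.14). Rplp1 and Rplp2 were at -0.064 and -0.028, with overlapping groups. Rpsa, the small subunit protein also described as a laminin receptor precursor, averaged 11.21 ± 0.06 on TG arrays against 11.27 ± 0.06 on WT arrays (SD, n = 3 each), and its 5 probe sets lay between -0.15 and -0.051. Rpl5, which carries 5S ribosomal RNA into the large subunit and can bind Mdm2 when free, was at -0.032 (SE 0.06), and Rpl23, another Mdm2-binding protein, at -0.048. Rpl22, needed for T cell development in mice, was at -0.033, with WT array 1 at 9.92 above the other arrays, which ran from 9.60 to 9.80. Rpl7 and Rpl36a, whose paralogs Rpl7l1 and Rpl36al fall outside the rule, were at -0.046 and 0.0081. Rpl11, Rps27 and Rpl39 had only probe sets annotated to several genes.

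Many members were read by more than 1 probe set. The 59 genes had 215 probe sets, 39 genes had several, and Rps12 had the most, 14. Ribosomal protein genes have many processed pseudogenes of near-identical sequence, so a probe set may detect more than 1 copy, and each value stands for the gene and such copies together. Values identical to 3 decimals recurred in 12 probe sets of 5 genes, so probe sets are not independent readings. In 27 of the 39 genes all probe sets had the same sign, in 24 below 0 and in 3 above, and in 12 the signs were mixed. The range of differences within a gene had a median of 0.035 and was under 0.05 in 24 genes. It was largest in Rps9, at 0.22: probe set 10549588 gave -0.081, while probe set 10569069 gave 0.14, with 10.38, 10.36 and 10.83 in TG and 10.33, 10.48 and 10.34 in WT, where TG array 3 stood above the rest. The other genes with mixed signs were Rpl5, Rpl9, Rpl21, Rpl23, Rpl23a, Rpl27a, Rps4x, Rps6, Rps18, Rps25 and Rps28, with probe sets between -0.092 and 0.055. Over all 215 probe sets, 179 were below 0, with a median of -0.033.

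**Figure D4:**
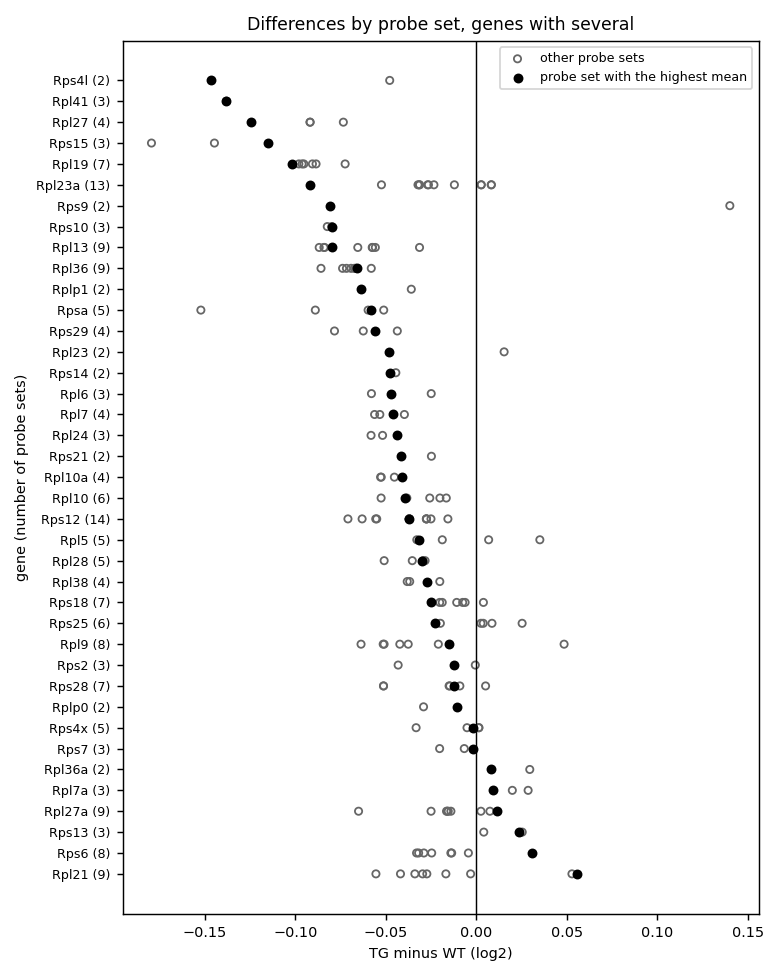
Difference (TG minus WT, log2) of every probe set of the 39 genes with several, the chosen one filled and the others open, with the number of probe sets beside each gene. In 24 genes the probe sets span under 0.05, and the far point on the right is the second Rps9 probe set at 0.14.

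The sequence at the transcript start is a feature of these genes that the choice by symbol did not use. RefSeq start windows (build GRCm38.p6) were at hand for 47 of the 59 genes, 56 windows in all. A cytosine followed by at least 4 bases that are each C or T, read on the transcribed strand and beginning at the first transcribed base, was present in 17.9% of these windows and in 2.51% of all 32851 windows. Allowing the run to begin up to 5 bases to either side gave 35.7% and 17.1%. The motif CCGGAAG, searched on both strands of the window of 300 bases from 250 before to 50 after the start, was in 33.9% of the members' windows and 8.86% of all, and in 1 member window the pyrimidine run was part of it. The 18 genes with a run near the start had a median difference of -0.028, with 13 below 0, and the 29 genes without one had -0.037, with 26 below 0. The starts of 6 genes with a run and of 3 paralogs are shown from 10 bases before the listed start to 20 bases after it, with the run in capitals, to set the canonical starts beside those of the muscle, testis and p53-responsive copies.
Rpl28 (chr7:4792955-4792984, + strand): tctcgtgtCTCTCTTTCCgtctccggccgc
Rpl38 (chr11:114668570-114668599, + strand): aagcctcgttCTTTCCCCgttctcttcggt
Rplp2 (chr7:141447641-141447670, + strand): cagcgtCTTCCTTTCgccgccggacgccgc
Rps6 (chr4:86857348-86857377, - strand): gaagtcgggCCTCTTTTTCgtgacgcctcc
Rps10 (chr17:27635225-27635254, - strand): gcgcacgCCCCTTCCTTTCCagcctccgcc
Rps18 (chr17:33955646-33955675, - strand): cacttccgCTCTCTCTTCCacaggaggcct
Rpl3l (chr17:24727816-24727845, + strand): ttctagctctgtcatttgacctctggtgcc
Rpl10l (chr12:66284382-66284411, - strand): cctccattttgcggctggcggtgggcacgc
Rps27l (chr9:66946076-66946105, + strand): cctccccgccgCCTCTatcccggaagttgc
The runs of the 6 canonical genes shown, which were taken from those with a run, are 8 to 13 bases long, and that of Rps27l is 5. No such run begins within 5 bases of the start in the Rpl3l and Rpl10l windows, although the same kind of letters occurs farther from it in both. Rps27l and Rpl3l each have another listed start, and neither of these other starts has a run near it. Rpl28, Rpl38, Rplp2 and Rps18 differed between TG and WT by -0.030, -0.027, -0.028 and -0.025.

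The other genes of ribosome production and translation gave no call either, and in the deposited scaling their medians lay above 0. Of all genes, 8728 of 19938 lay above 0, with a median of -0.016. Of the genes above the median level, 5275 of 9969 did, with a median of 0.006. The medians of the elongation factor list (0.0099) and the tRNA synthetase list (0.0069) were close to that 0.006. No gene of these lists passed an adjusted p of 0.05 (limma), and no test of a list against the ribosomal proteins was made. Of 57 ribosome assembly factors, 40 lay above 0, with a median of 0.049. In this list 6 were higher at an unadjusted p under 0.05, where 1.96% of all genes were, and 11 were higher without overlap, where 4.52% were, and 2 (Noc4l and Nle1) were lower without overlap, where 7.76% were. Utp20, a factor of small subunit assembly, was at 7.97, 8.16 and 8.08 in TG and 7.59, 7.57 and 7.49 in WT, a difference of 0.52 (SE 0.07; limma, adjusted p = 0.299). The box C/D snoRNP protein gene Nop58 was at 7.94, 8.00 and 7.86 in TG and 7.72, 7.73 and 7.74 in WT, a difference of 0.20 (SE 0.07; limma, adjusted p = 0.710). RNA polymerase I and ribosomal DNA genes had 11 of 16 above 0 and a median of 0.048, with Polr2h, a subunit shared by the 3 nuclear polymerases, at -0.21 (SE 0.06) without overlap and Twistnb at 0.14.

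Mitochondrial ribosomal proteins, which serve the separate ribosome of mitochondria, lay above 0 in 55 of 77 genes with a median of 0.029, and had 2 higher and 0 lower at an unadjusted p under 0.05, where 1.96% of all genes were higher and 4.79% lower. Mrpl47 was at 0.24 (SE 0.09) and Mrps31 at 0.15 (SE 0.06). Initiation factors had 20 of 33 above 0 and a median of 0.023, with Eif2a at 0.16 (SE 0.07), without overlap, and Eif3e at 0.17 (SE 0.08). Elongation and release factors had 9 of 15 above 0 and a median of 0.0099, with Eef2k, the kinase that inhibits elongation factor 2, at -0.11 and Etf1, a release factor, at 0.078. The mTOR and TOP control list had 11 of 14 above 0 and a median of 0.028, with Akt1s1, an inhibitory subunit of mTOR complex 1, at -0.081 without overlap and Rptor at 0.082. Cytosolic tRNA synthetases had 11 of 19 above 0 and a median of 0.0069, with Farsa at -0.10 and Tars at 0.080. Of ribosomal protein genes outside the naming rule, Fau, Rps3a1 and Rpl7l1 were at -0.031, 0.038 and 0.11, each with overlapping groups. The annotated pseudogenes Rps19-ps3 and Rpl14-ps1 were both at 0.047.

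**Figure D5:**
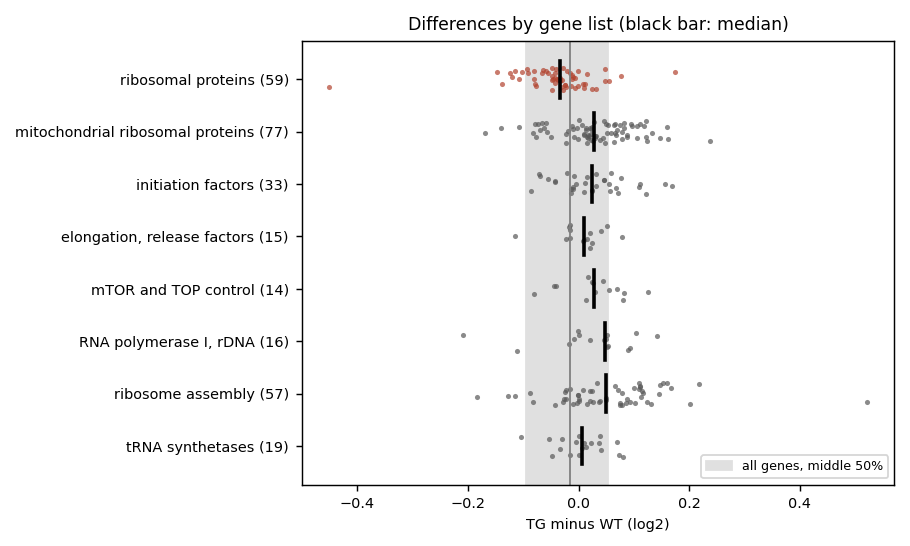
Differences (TG minus WT, log2) of single genes by list as points, spread vertically at random, with the list's median as a black bar and the number of genes in brackets. The grey band holds the middle 50% of all genes and the grey line their median of -0.016; the ribosomal proteins centre at -0.034 and ribosome assembly factors at 0.049.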

How the data were processed

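The deposited values are log2 intensities of 35557 probe sets on Affymetrix mouse gene arrays, 3 TG and 3 WT. Their range, 1.41 to 15.1, shows the scale; how the authors corrected, summarized and normalized them is not given in the labels or headers. Values were used as deposited, with array medians within 0.057 of each other. RNA was extracted with Trizol and RNeasy columns, per the labels' protocols, and the labels name no batch. Symbols came from the platform annotation, in which 21789 probe sets have 1 symbol, 1621 several (233 of them including a symbol that fits the rule) and 12147 none. Probe sets with several were not named.

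All 19938 genes were fitted together in limma 3.58.1 (lmFit, eBayes; R 4.3.3). Tests were two-sided, with Benjamini-Hochberg adjustment and a threshold of 0.05. A "±" is the SD over 3 arrays, and intervals are at 95%. The fit was tested on simulated data with planted changes larger than any difference of the ribosomal protein genes. That test does not address changes of the size reported here. Lists are described by counts and medians without a test. The named genes are those with the 6 largest differences each way, up to 8 per direction without overlap, the paralogs and their parents, members set by role, and members with mixed probe set signs, 36 in all, and the 2 genes of smallest p in each other list. A few more are named to complete a count. The members, lists and tests were chosen with earlier results of these data known, and the start motifs and the genes whose sequences are shown were chosen after the values were seen. Alternatives changed the variance model (trend, robust, weights), the genes (upper level only), the probe set rule (mean of probe sets, or every one tested), the scaling (quantile, common median) or the arrays (each left out). Figures were drawn with matplotlib 3.10.9.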

Additional observations from a re-analysis of the deposited data

How the results depend on the processing

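No member passed an adjusted p of 0.05 in limma under any of the alternatives run, with smallest adjusted p from 0.556 to 0.912. The number at an unadjusted p under 0.05, which was 1, was 5 with an intensity trend and 0 among genes above the median level, where Rpl10l is not tested, and ran from 1 to 2 as each array was left out, reaching 2 without TG array 2 and without WT array 1. In the same fits 6.75% of all genes were at that p as reported, 6.52% with the trend, 6.88% above the median level, and 5.22% to 7.85% with an array left out. The number without overlap, which was 9, was 3 with a common array median and ran from 10 to 28 with each array left out, where 5 arrays remain. Of all genes, 12.3% were without overlap both as reported and with a common median, and 20.6% to 25.1% with an array left out, so the counts of 10 to 13 of 59 lie near or below that share. It was 7 without the paralogs, an alternative added after the data were seen. The median difference stayed below 0 in all alternatives run, from -0.053 (without TG array 1) to -0.015 (common median, and without TG array 2), and over the 53 canonical genes it was -0.033. The median over all genes was -0.010 without TG array 1, 0.0035 with a common median and -0.016 without TG array 2. Of 36 named members, the direction was kept by 32 with a common median and by 32 with the mean of probe sets. The causes of these shifts were not tested. No paired analysis was possible because the labels give no replicate numbers shared between groups. Signal over background could not be assessed without probe intensities.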
